A study of Homo sapiens with 6 samples.

Results

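The SLC25 family holds the mitochondrial carriers, and its members were taken as every protein-coding gene of the expression table whose symbol begins with SLC25A. That rule gave 48 genes of the 58735 in the table, spread over 19 chromosomes, and 45 further rows with an SLC25A symbol that were pseudogenes or non-coding transcripts were left out. Messenger RNA was sequenced from Hep-G2, an established human liver cancer line, to ask which transcripts change after knockdown of CLGN, the gene of calmegin, an endoplasmic reticulum chaperone. The sh-CLGN group (n = 3 libraries, genotype given as CLGN knock down) carried a short hairpin RNA against CLGN, and the sh-NC group (n = 3 libraries, genotype given as WT) carried a negative control hairpin. Both hairpins were delivered by lentivirus with puromycin selection in the study's methods, all 6 libraries carry the same batch entry and the same hepatocyte label, and no other agent is named for them. Each group held a single hairpin, so the hairpin and the loss of CLGN cannot be told apart, and the labels do not say whether replicates came from separate cultures, so p-values measure only the spread between these libraries. In bulk RNA, fewer cells of a type and less RNA per cell cannot be told apart.

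Mitochondrial carriers are small proteins of the inner membrane that move nucleotides, phosphate, carboxylates, amino acids, cofactors and metal ions between the matrix and the cytosol, usually as an exchange of one substrate for another. They are encoded in the nucleus, made without a cleaved presequence in most cases, and brought to the inner membrane by the outer membrane receptor TOMM70, the small TIM chaperones and the TIMM22 insertase. In liver cells they connect the urea cycle, the malate-aspartate shuttle, fatty acid oxidation and heme and lipid synthesis across the membrane.

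CLGN itself was measured first. Its level was 24.1, 21.0 and 26.1 FPKM in the sh-NC libraries and 9.48, 8.88 and 8.60 FPKM in the sh-CLGN libraries, where FPKM counts fragments per kilobase of gene and is scaled to library size. All 3 sh-CLGN libraries lay below all 3 sh-NC libraries, with 37.8% of the control mean left (log2 change -1.31, SE 0.08, limma adjusted p = 8.35e-06). Libraries held 14955816 to 16244639 reads, and the mitochondrial genome took 3.62% ± 0.387 of them in sh-NC, against 5.61% ± 0.170 in the sh-CLGN libraries (SD, n = 3; two-sided exact permutation p = 0.1, the smallest that 3 against 3 allow). Of 7 hepatocyte markers, 2 were higher and 4 lower at the adjusted p, beside 26.7% higher and 39% lower of all tested genes. The 7 summed to 4196 to 4202 FPKM in sh-NC, against 3264 to 3484 in sh-CLGN. ALB, the largest part of these sums, fell from 2007 ± 70.9 to 1076 ± 27.7 FPKM, and SERPINA1 and HNF4A also fell. TTR rose from 182 ± 14.9 to 274 ± 12.1 FPKM and FGB from 280 ± 13.5 to 463 ± 24.1, while APOA1 did not pass. The liver tumor marker AFP was at 2670 ± 105 and 3782 ± 145 FPKM. Transferrin (TF) was the hepatocyte marker past both thresholds, at 181 ± 3.32 FPKM in sh-NC and 58.4 ± 0.483 in sh-CLGN. The 8 fibroblast markers summed to 7.17 to 8.51 FPKM in sh-NC, against 48.5 to 49.9 in sh-CLGN, of which COL1A2 held 38.7 ± 0.614 in sh-CLGN against 4.20 ± 0.561. Of these 8, the 5 tested were all higher, with COL1A1, COL3A1 and LUM also past both thresholds, while DCN and THY1 were at or near 0 in every library. All sh-NC libraries of COL1A1, COL3A1 and LUM were under 1 FPKM. These genes were tested only because of the sh-CLGN libraries, and their calls are a description. Endothelial markers (1 tested, PECAM1, lower) summed to 3.33 to 3.67 and 2.38 to 2.65 FPKM, and leukocyte and erythroid markers were near 0. The part of these shifts in the carrier values was not tested.

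More of the tested carriers were lower than higher in sh-CLGN. Of the 48 genes, 37 reached at least 1 FPKM in at least 3 libraries and were tested, and at a limma adjusted p of at most 0.05 there were 19 lower, 9 higher and 9 that did not pass. The 19 lower genes made up 51.4% of the tested carriers, where 39% of all 13074 tested genes were lower. The 9 higher genes made up 24.3%, where 26.7% of all tested genes were higher. SLC25A27 and SLC25A18 are among these 9 and among the higher carriers without overlap. Both were tested only because of the sh-CLGN libraries, where they were high, so their part of these counts is a description. The 3 libraries of each group did not overlap in 22 carriers that were lower (59.5%, beside 41.5% of all tested genes) and in 9 that were higher (24.3%, beside 28.7%), and the groups overlapped in the other 6. The median log2 fold change over the tested carriers was -0.29, beside -0.08 over all tested genes. Removing the trend of expression with transcript GC content gave 12 higher and 16 lower carriers, so that 42.9% of the called carriers were higher in place of 32.1%, where 32.2% of all tested genes were then higher and 34.9% lower. Read totals in place of the deposited library sizes gave 12 and 17 (41.4% higher), where 37.9% of all tested genes were higher and 26.2% lower, and shifted the median of all tested genes by 0.16.

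**Figure D1:**
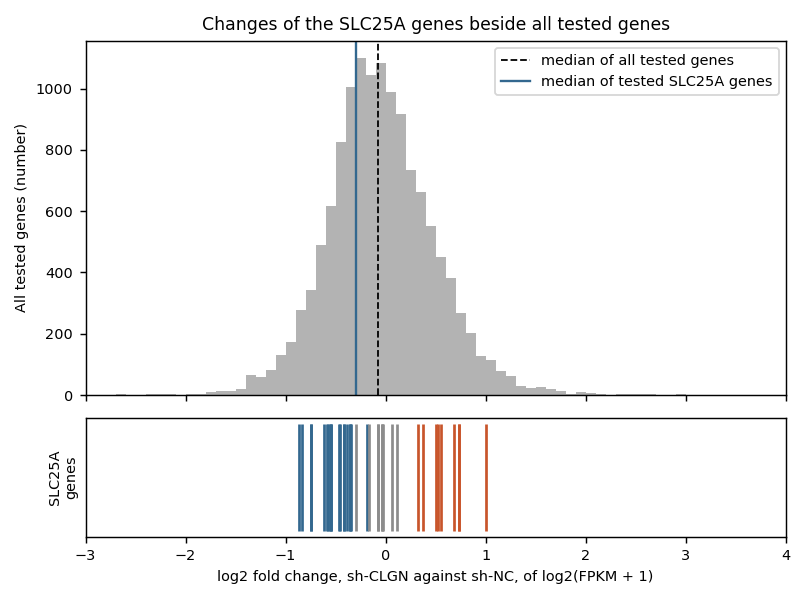
The upper panel counts all 13074 tested genes by their log2 fold change in bins of 0.1, with dashed and solid lines at the medians of all tested genes (-0.08) and of the tested SLC25A genes (-0.29). In the lower panel each of the 37 tested SLC25A genes is a line, orange where higher, blue where lower and grey where it did not pass, and the carriers run from -0.87 to 1.01.

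Changes were moderate in size. With a log2 fold change of at least 1 asked for as well, 1 carrier was higher (2.70%, beside 3.09% of all tested genes) and 0 were lower, beside 3.19% of all tested genes. SLC25A27 was the carrier past both thresholds, and it did not stay there when sh-NC replicate 3 was left out (log2 change 0.95) or when any sh-CLGN library was left out, since it then fell below the expression filter. All of its sh-NC libraries were under 1 FPKM, so it was tested only because of the sh-CLGN libraries, and its place past both thresholds is a description. No alternative gave a lower carrier past both. Lower carriers past the adjusted p numbered 19 in limma, where 39% of all tested genes were lower. In voom on the recovered reads they numbered 20, where 40.3% of all tested genes were lower. With an unadjusted p under 0.05 in limma they numbered 20, and the share of all tested genes at that threshold was not counted. The largest fall was -0.87.

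The total carrier message depended on how libraries were scaled. Summed over the 48 genes the deposited FPKM was 881 ± 22.8 in sh-NC, against 690 ± 9.02 in sh-CLGN (SD, n = 3), a ratio of 0.783. As a share of all reads the carriers took 0.260% ± 0.00459 in sh-NC and 0.248% ± 0.00238 in sh-CLGN, a ratio of 0.951. The library sizes behind the deposited values were 0.933 to 0.953 of the read totals in sh-NC, against 1.07 to 1.08 in sh-CLGN, and with the read totals in their place the summed level fell from 829 ± 13.4 to 743 ± 11.1, a ratio of 0.897. In each of these measures every sh-CLGN library lay below every sh-NC library.

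**Figure D2:**
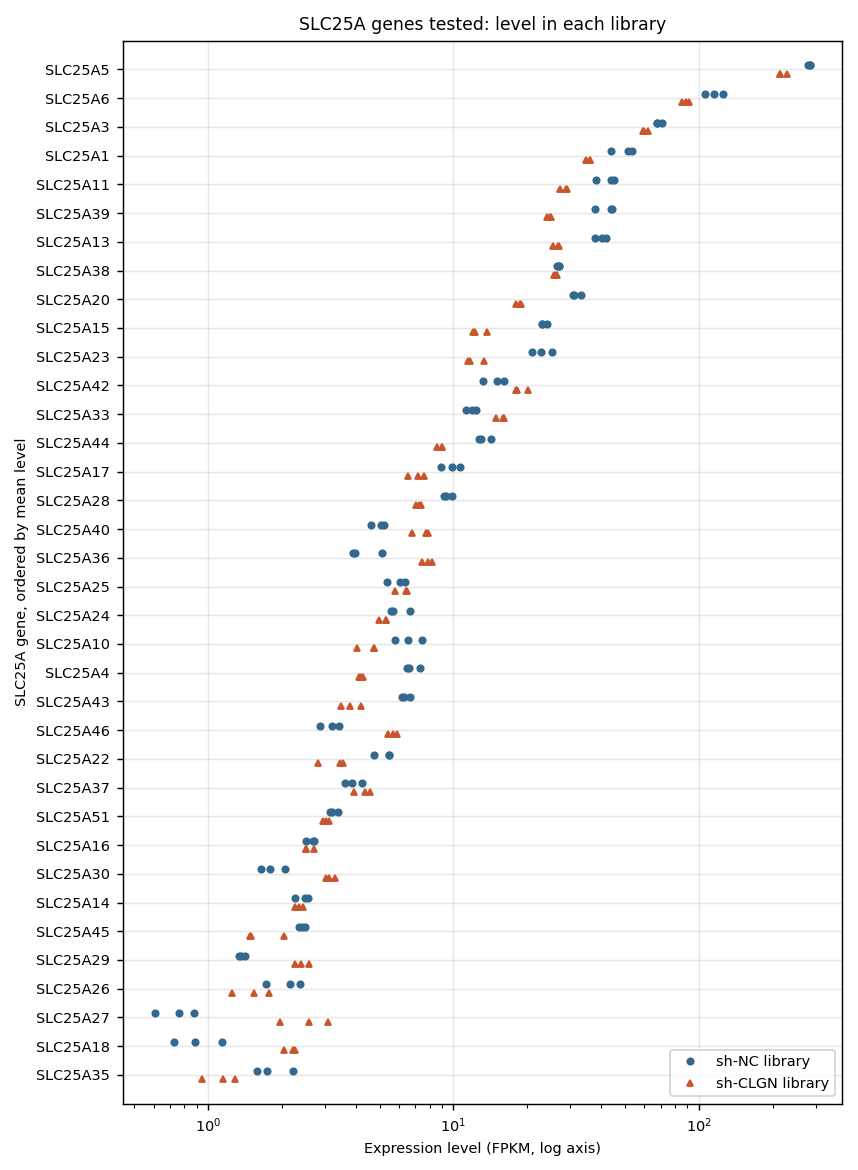
Tested SLC25A genes are rows, ordered by mean level, with FPKM on a log axis. Circles are the 3 sh-NC libraries and triangles the 3 sh-CLGN libraries, and levels run from below 1 FPKM in SLC25A27 and SLC25A18 to 282 FPKM, the sh-NC mean of SLC25A5.

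The adenine nucleotide translocases exchange ADP for ATP across the inner membrane and were the most abundant carriers. SLC25A5 (ENSG00000005022, chrX:119468400-119471319, GRCh38) was at 283, 278 and 283 FPKM in the sh-NC libraries and 229, 215 and 215 FPKM in the sh-CLGN libraries. SLC25A6 (ENSG00000169100, chrX:1386152-1392724), which lies in the pseudoautosomal region, was at 126, 115 and 106 FPKM in sh-NC and at 88.9, 85.5 and 91.1 FPKM in sh-CLGN. SLC25A4 (ENSG00000151729, chr4:185143241-185150382), the form known best from heart and skeletal muscle, was at 6.45, 7.30 and 6.59 FPKM in sh-NC and at 4.11, 4.18 and 4.26 FPKM in sh-CLGN. In all 3 genes every sh-CLGN library lay below every sh-NC library.

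On the log2 scale SLC25A5 changed by -0.36 (SE 0.05, adjusted p = 2.88e-04 in limma), SLC25A6 by -0.38 (SE 0.07, adjusted p = 0.00145) and SLC25A4 by -0.58 (SE 0.06, adjusted p = 1.08e-04). The calls for SLC25A5 and SLC25A6 did not hold under every setting. Quantile normalization left changes of -0.03 (adjusted p = 0.548) and -0.10 (adjusted p = 0.16), and the GC correction left -0.22 (adjusted p = 0.00158) and -0.08 (adjusted p = 0.124). Of the summed FPKM of the 4 translocases, SLC25A5 made up 69.7% ± 1.72 in sh-NC and 70.3% ± 0.902 in sh-CLGN, SLC25A6 28.6% ± 1.77 and 28.4% ± 0.868, and SLC25A4 1.68% ± 0.136 and 1.34% ± 0.0539. SLC25A31, the testis form, had 0 reads in sh-NC and at most 1 in sh-CLGN. SLC25A5 and SLC25A6 have many processed pseudogenes and close sequences, and reads that fit several copies make their values uncertain.

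Other nucleotide carriers moved in both directions. SLC25A23 (ENSG00000125648, chr19:6436079-6465203), a calcium-regulated carrier of ATP-Mg for phosphate, was at 22.7, 25.3 and 21.0 FPKM in sh-NC and at 11.5, 11.6 and 13.4 FPKM in sh-CLGN. Its groups were far apart, and its log2 change of -0.87 (SE 0.08, adjusted p = 6.36e-05 in limma) was the largest fall among the tested carriers. Of its relatives, SLC25A24 was at -0.16 (SE 0.08, adjusted p = 0.0913) and SLC25A25 at 0.06 (SE 0.07, adjusted p = 0.492), and SLC25A41 was below the filter at 0 to 3 reads per library. The GC correction brought SLC25A24 to -0.33 (adjusted p = 7.03e-04) and SLC25A25 to 0.28 (adjusted p = 0.00267).

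The pyrimidine nucleotide carriers SLC25A33 and SLC25A36, which bring pyrimidine nucleotides into the matrix for mitochondrial DNA and RNA synthesis, rose together. SLC25A36 (ENSG00000114120, chr3:140941830-140980961) was at 3.99, 3.88 and 5.14 FPKM in sh-NC and at 7.41, 8.20 and 7.85 FPKM in sh-CLGN. Every sh-CLGN library was above every sh-NC library (log2 change 0.73, SE 0.09, adjusted p = 2.87e-04 in limma). SLC25A33 (ENSG00000171612) went from 11.9 ± 0.592 to 15.7 ± 0.604 FPKM (SD, n = 3; log2 change 0.37, SE 0.06, adjusted p = 6.57e-04), also without overlap. Across the 10 nucleotide carriers, 8 were tested, of which 2 rose, 4 fell and 2 did not pass, and their summed level fell from 455 ± 10.6 to 359 ± 7.93 FPKM.

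The promoters of this rising pair are shown because both hold the full cyclic AMP response element TGACGTCA, a palindrome that reads the same on both strands. The sequences are RefSeq promoter windows on GRCh38.p14, both on the plus strand, cut to 150 bases that end before any transcribed base of the gene in GENCODE 29, with the element in capitals, at chr1:9539315-9539464 for SLC25A33 and chr3:140941680-140941829 for SLC25A36.
SLC25A33: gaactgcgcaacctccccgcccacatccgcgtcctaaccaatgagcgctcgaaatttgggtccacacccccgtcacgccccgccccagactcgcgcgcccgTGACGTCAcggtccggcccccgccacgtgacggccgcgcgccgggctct
SLC25A36: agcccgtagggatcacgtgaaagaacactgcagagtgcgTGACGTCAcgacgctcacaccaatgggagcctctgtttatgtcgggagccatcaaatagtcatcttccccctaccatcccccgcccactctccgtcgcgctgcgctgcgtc
The element began 49 bases before the RefSeq start in SLC25A33 and 117 bases before it in SLC25A36. Over the 250 bases before the start, 1.65% of 35116 windows of that length hold TGACGTCA on either strand. Among the 40 carriers with a window it was in SLC25A33, SLC25A36 and SLC25A25, the last of which did not pass the test, and in 0 of the 18 lower carriers with a window. A carrier counted if any of its windows held the motif, so carrier counts and shares of single windows are unlike measures. Both sequences also hold the E-box CACGTG, which 6.34% of windows hold, and which was in 3 of 8 higher and 1 of 18 lower carriers. A match in these letters is a description of the window and not of factor binding, and the motifs were looked at with the changes known.

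Carriers of carboxylates, which link the citric acid cycle to lipid synthesis and to the malate-aspartate shuttle, were lower. So was the phosphate carrier on the deposited scaling, but its call was lost with read totals, TPM and quantile normalization. SLC25A3 (ENSG00000075415, chr12:98593591-98606379), which brings phosphate into the matrix for ATP synthesis, was at 67.4, 71.2 and 67.3 FPKM in sh-NC and at 62.1, 59.6 and 59.1 FPKM in sh-CLGN. The groups did not overlap, but the log2 change of -0.18 (SE 0.05, adjusted p = 0.00875 in limma) was small and its direction depended on the scaling. It was 0.10 under quantile normalization (adjusted p = 0.0867), 0.01 under scaling by read totals (adjusted p = 0.894) and -0.06 with TPM (adjusted p = 0.375).

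SLC25A1 (ENSG00000100075, chr22:19175575-19178830) exports citrate to the cytosol, and was at 53.4, 51.5 and 43.9 FPKM in sh-NC and at 36.2, 34.6 and 36.0 FPKM in sh-CLGN. SLC25A11 (ENSG00000108528, chr17:4937130-4940251), the oxoglutarate and malate carrier of the malate-aspartate shuttle, was at 45.0, 43.9 and 38.1 FPKM in sh-NC and at 28.9, 28.8 and 27.2 FPKM in sh-CLGN. In both genes sh-NC replicate 3 was the lowest of its group and still above all sh-CLGN libraries. The log2 changes were -0.46 (SE 0.07, adjusted p = 8.67e-04 in limma) for SLC25A1 and -0.56 (SE 0.07, adjusted p = 2.24e-04) for SLC25A11. Both were smaller after the GC correction, at -0.16 (adjusted p = 0.00539) and -0.32 (adjusted p = 6.78e-04), and under quantile normalization, at -0.18 (adjusted p = 0.0376) and -0.29 (adjusted p = 0.00333). The dicarboxylate carrier SLC25A10 also fell, by 0.45 on the log2 scale (SE 0.09, adjusted p = 0.0034), but 46.6% of its exon bases are shared on the same strand with a gene listed at 0, and the GC correction left -0.15 (adjusted p = 0.165). Together with SLC25A21 these carboxylate carriers went from a summed 98.5 ± 9.33 to 68.5 ± 1.40 FPKM, and SLC25A21, an oxodicarboxylate carrier, was below the filter with 0 to 13 reads.

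Among the aspartate and glutamate carriers, 2 fell and 1 rose. SLC25A13 (ENSG00000004864, chr7:96120220-96322147), citrin, the aspartate-glutamate exchanger of liver, was at 37.8, 40.2 and 41.7 FPKM in sh-NC and at 25.4, 26.9 and 26.7 FPKM in sh-CLGN. Its groups were well separated (log2 change -0.58, SE 0.05, adjusted p = 5.12e-05 in limma), and quantile normalization left -0.31 (adjusted p = 0.00262). SLC25A12, aralar, which does the same work in brain and muscle, was below the filter at 30 to 46 reads per library, and its groups overlapped.

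The glutamate carriers SLC25A22 and SLC25A18 moved apart. SLC25A18 (ENSG00000182902, chr22:17563439-17590994) was at 1.13, 0.881 and 0.722 FPKM in sh-NC and at 2.21, 2.26 and 2.04 FPKM in sh-CLGN. These levels rest on 53 to 178 reads per library, and the groups did not overlap (log2 change 0.73, SE 0.10, adjusted p = 3.95e-04 in limma, and 1.28 in voom). With only 1 sh-NC library at 1 FPKM or more, it too needed the sh-CLGN libraries to be tested. An antisense gene covers 11% of its exon bases, and PANO1 lies opposite 10.8% of those of SLC25A22. Without strand the reads of such overlapping genes cannot be told apart. SLC25A22 went from 5.21 ± 0.408 to 3.27 ± 0.413 FPKM (log2 change -0.54, SE 0.09, adjusted p = 0.00104), and the GC correction left -0.26 (adjusted p = 0.0109). The ratio of SLC25A22 to SLC25A18 within a library was 4.82 to 6.56 in sh-NC, against 1.24 to 1.75 in sh-CLGN.

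Carriers of other amino acids and of carnitine gave some of the largest falls. SLC25A15 (ENSG00000102743, chr13:40789412-40810111), the ornithine and citrulline exchanger of the urea cycle, was at 22.9, 24.1 and 23.0 FPKM in sh-NC and at 12.0, 12.3 and 13.7 FPKM in sh-CLGN. About as far apart were the groups of SLC25A20 (ENSG00000178537, chr3:48856931-48898993), which carries acylcarnitines into the matrix for fatty acid oxidation, at 31.1, 33.2 and 30.7 FPKM in sh-NC and at 18.9, 18.6 and 18.0 FPKM in sh-CLGN. Their levels in sh-CLGN were 54.1% and 58.5% of the sh-NC means, and no libraries of different groups overlapped. The log2 changes were -0.84 (SE 0.06, adjusted p = 1.62e-05 in limma) for SLC25A15 and -0.74 (SE 0.05, adjusted p = 1.26e-05) for SLC25A20, and stayed at or below -0.63 and -0.49 under all 10 alternative settings.

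SLC25A44, which carries branched-chain amino acids, fell as well (13.3 ± 0.806 to 8.83 ± 0.253 FPKM, log2 change -0.54, adjusted p = 1.13e-04 in limma). SLC25A29, a carrier of basic amino acids, rose from 1.37 ± 0.0415 to 2.41 ± 0.163 FPKM (log2 change 0.53, SE 0.08, adjusted p = 5.02e-04, and 0.82 with TPM). SLC25A38, the glycine carrier needed for heme synthesis, was at 26.8 ± 0.239 and 26.1 ± 0.379 FPKM (log2 change -0.04, SE 0.04, adjusted p = 0.465). Its direction depended on the scaling, at 0.22 under quantile normalization, 0.15 under read totals and 0.13 after the GC correction, each past the adjusted p. SLC25A2, the close relative of SLC25A15, held 0 to 2 reads per library. Over the 6 genes of this list the summed level fell from 96.5 ± 3.13 to 68.5 ± 0.784 FPKM.

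**Figure D3:**
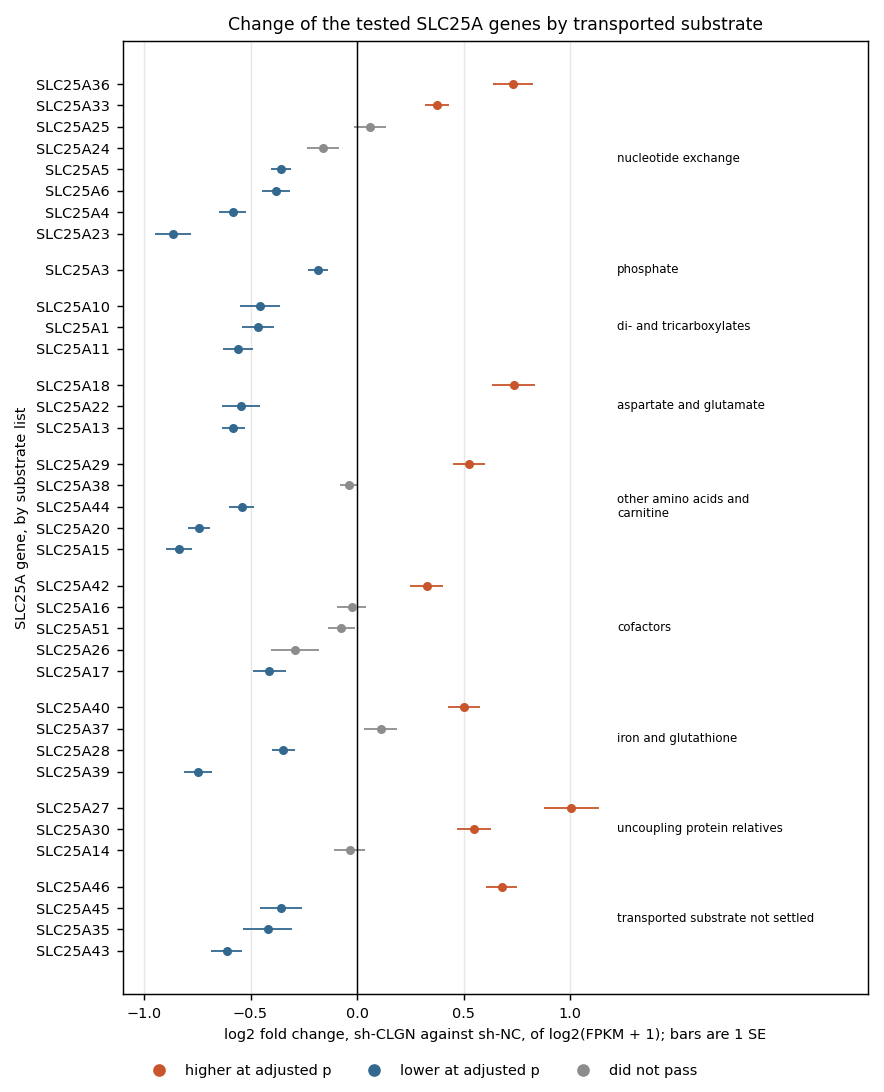
Points are log2 fold changes of log2(FPKM + 1), sh-CLGN against sh-NC, and bars are 1 SE, with tested SLC25A genes grouped by transported substrate. Orange genes were higher and blue genes lower at the adjusted p, and grey genes did not pass. The 3 tested carboxylate carriers were all lower, no uncoupling protein relative passed as lower, and the other lists of at least 3 tested genes held both directions.

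Iron and glutathione carriers also held opposite changes. SLC25A39 (ENSG00000013306, chr17:44319625-44324870), which brings glutathione into the matrix, was at 43.7, 44.2 and 37.8 FPKM in sh-NC and at 24.9, 24.0 and 24.7 FPKM in sh-CLGN. The groups did not overlap (log2 change -0.75, SE 0.07, adjusted p = 4.18e-05 in limma), and quantile normalization left -0.48 (adjusted p = 1.92e-04). Its paralog SLC25A40 (ENSG00000075303) rose from 4.96 ± 0.304 to 7.44 ± 0.599 FPKM (log2 change 0.50, SE 0.07, adjusted p = 5.36e-04), of which the GC correction left 0.21 (adjusted p = 0.0203). The ratio of SLC25A39 to SLC25A40 was 7.29 to 9.48 in sh-NC libraries and 3.05 to 3.67 in sh-CLGN libraries. Of the mitoferrins, which carry iron for heme and iron-sulfur clusters, SLC25A28 fell from 9.45 ± 0.362 to 7.22 ± 0.162 FPKM (log2 change -0.35, adjusted p = 7.10e-04) and SLC25A37 was at 3.90 ± 0.330 and 4.29 ± 0.322 FPKM (log2 change 0.11, adjusted p = 0.24). The GC correction left -0.11 in SLC25A28 (adjusted p = 0.0459).

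The promoters of this pair are shown because the genes moved in opposite directions. They are RefSeq windows on GRCh38.p14, both on the minus strand and given 5′ to 3′ along the gene, again cut to 150 bases before any transcribed base, with each GC box (GGGCGG, or CCGCCC on the other strand) in capitals, at chr17:44324871-44325020 for SLC25A39 and chr7:87876361-87876510 for SLC25A40.
SLC25A39: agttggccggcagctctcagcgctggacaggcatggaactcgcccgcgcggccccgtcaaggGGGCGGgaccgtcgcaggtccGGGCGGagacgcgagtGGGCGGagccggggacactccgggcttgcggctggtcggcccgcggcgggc
SLC25A40: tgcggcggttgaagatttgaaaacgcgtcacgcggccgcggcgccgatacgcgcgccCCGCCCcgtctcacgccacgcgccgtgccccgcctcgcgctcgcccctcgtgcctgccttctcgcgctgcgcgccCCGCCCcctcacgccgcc
Both windows were rich in G and C, at 74% in SLC25A39 and 72.8% in SLC25A40 over 250 bases. A GC box stood in a window of 30 of the 40 carriers, of 16 of 18 lower and 5 of 8 higher carriers, and in 42.6% of all single windows. The 40 carriers had 50 windows, so carrier counts and shares of single windows are unlike measures. The median GC content of the window was 71.4% for the 18 lower carriers, 64.2% for the 8 higher carriers and 58% for all windows. A CCAAT box was in 20 of the 40 carriers and in 32% of all single windows, and the amino acid response element TGATGCAA was in 0 of the 40 and in 0.772% of all single windows.

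Relatives of the uncoupling proteins, inner membrane carriers named for the proton leak of UCP1, were low in level, and 2 of the 3 rose. SLC25A27 (ENSG00000153291, chr6:46652915-46678193), also known as UCP4 and best known from brain, was at 0.763, 0.875 and 0.609 FPKM in sh-NC and at 1.95, 2.58 and 3.07 FPKM in sh-CLGN. The groups were wide apart and sh-CLGN varied more, with 31 to 163 reads per library behind these levels (log2 change 1.01, SE 0.13, adjusted p = 2.86e-04 in limma). The ratio of means was 3.38, and the change on the log2(FPKM + 1) scale understates that of so low a gene (1.74 in voom). Since it passed the filter only through the group where it was high, its call is given as a description. SLC25A30 also rose, from 1.83 ± 0.208 to 3.13 ± 0.137 FPKM (log2 change 0.55, SE 0.08, adjusted p = 5.21e-04), and SLC25A14 was at 2.43 ± 0.152 and 2.35 ± 0.0825 FPKM (adjusted p = 0.681).

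The uncoupling proteins proper carry the carrier fold under other symbols. UCP2 (ENSG00000175567) was at 8.57, 7.0 and 6.65 FPKM in sh-NC and at 13.7, 15.3 and 14.8 FPKM in sh-CLGN, with no overlap (log2 change 0.90, SE 0.09, adjusted p = 7.63e-05 in limma). UCP1 was at 1.72, 1.59 and 1.86 FPKM in sh-NC and at 3.23, 1.75 and 3.35 FPKM in sh-CLGN, so that its groups overlapped although it passed the test (log2 change 0.44, SE 0.17, adjusted p = 0.0477). UCP3 was below the filter at 0.0787 ± 0.0421 and 0.308 ± 0.0739 FPKM. The outer membrane carrier relatives MTCH2 and MTCH1 were at -0.23 (adjusted p = 0.00648) and -0.14 (adjusted p = 0.0658) on the log2 scale, but both changed sign under quantile normalization, to 0.045 (adjusted p = 0.493) and 0.14 (adjusted p = 0.0418), and MTCH1 also with the GC correction (0.10) and read totals (0.052).

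Among the cofactor carriers 1 rose, 1 fell and 4 of the 6 tested did not pass. SLC25A42, which carries coenzyme A, rose from 14.8 ± 1.45 to 18.8 ± 1.23 FPKM (log2 change 0.33, SE 0.08, adjusted p = 0.00719 in limma, and 0.57 after the GC correction). SLC25A17, a carrier of coenzyme A, FAD and NAD in the peroxisomal and not the mitochondrial membrane, fell from 9.78 ± 0.877 to 7.10 ± 0.526 FPKM (log2 change -0.41, SE 0.08, adjusted p = 0.0022, and -0.24 with read totals). The S-adenosylmethionine carrier SLC25A26 was at -0.29 (SE 0.11, adjusted p = 0.0522), close to the threshold and with overlapping groups. The NAD carrier SLC25A51 was at -0.07 (SE 0.06) and SLC25A16 at -0.02 (SE 0.07). The summed level of the list was 35.6 ± 1.79 and 35.9 ± 0.911 FPKM, and with read totals it was 33.6 ± 1.64 and 38.7 ± 0.749, higher in every sh-CLGN library. SLC25A32, the folate and FAD carrier, held 2 to 9 reads per library, and 80.8% of its exon bases are shared with other genes, 69.7% with a gene on the same strand that is listed at 0, so that its level is uncertain.

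Carriers whose substrate is not settled were led by SLC25A46 and SLC25A43. SLC25A46 (ENSG00000164209, chr5:110738136-110765161), an outer membrane protein known for a role in mitochondrial shape, was at 3.18, 2.85 and 3.42 FPKM in sh-NC and at 5.39, 5.66 and 5.86 FPKM in sh-CLGN. SLC25A43 (ENSG00000077713, chrX:119399060-119454478) was at 6.14, 6.27 and 6.64 FPKM in sh-NC and at 3.48, 4.19 and 3.78 FPKM in sh-CLGN. Neither gene had overlapping groups, and the log2 changes were 0.68 (SE 0.07, adjusted p = 9.81e-05 in limma) for SLC25A46 and -0.61 (SE 0.07, adjusted p = 1.71e-04) for SLC25A43. The GC correction left 0.33 in SLC25A46 (adjusted p = 0.00133). SLC25A45 and SLC25A35 also fell, by 0.36 and 0.42 on the log2 scale (adjusted p = 0.0124 and 0.0118). Both calls were lost after the GC correction, at adjusted p = 0.305 and 0.137, and 33.2% of the exon bases of SLC25A35 lie opposite RANGRF, whose reads cannot be told apart from its own without strand. Without sh-CLGN replicate 2 SLC25A45 stood at -0.31 and no longer passed, and with read totals it stood at -0.23 (adjusted p = 0.0725).

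Carriers below the filter numbered 11. SLC25A34 held 6, 11 and 13 reads in sh-NC, against 37, 37 and 35 in sh-CLGN. SLC25A48 held 0, 5 and 8 reads in sh-NC, against 23, 24 and 24 in sh-CLGN. Both were higher in every sh-CLGN library. With no filter they passed the test, at log2 changes of 0.48 (adjusted p = 0.00588 in limma) and 0.18 (adjusted p = 0.0132) on a scale where such low values are compressed. In that fit 13.6% of 33474 genes were higher and 14.1% lower. SLC25A32 was also higher in every sh-CLGN library. The share of other such low genes without overlap was not counted. More genes held a read in sh-CLGN (26887 ± 104) than in sh-NC (23672 ± 110), and the part of that in these carriers was not tested. SLC25A53 held 19 to 38 reads, and SLC25A52, SLC25A47 and SLC25A31 held at most 1, although SLC25A47 is known as a liver carrier. With at most 3 reads per library, no difference was detectable at this depth in SLC25A2, SLC25A41, SLC25A47, SLC25A31 and SLC25A52.

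Within-library ratios of related carriers do not depend on a scaling by 1 factor per library, though quantile normalization and the GC correction can move them, and 9 pairs were compared, chosen with the changes known and given without a test. In 8 of the 9 the 3 sh-CLGN ratios lay outside the range of the 3 sh-NC ratios. Single genes often did not overlap either, at 28.7% of all tested genes higher and 41.5% lower. The share among other pairs was not counted, so the 8 are a description. Besides the pairs above, the ratio of SLC25A15 to SLC25A29, both carriers of basic amino acids, was 16.9 to 17.2 in sh-NC, against 4.74 to 5.70 in sh-CLGN. SLC25A28 over SLC25A37 was 2.15 to 2.74 in the controls and 1.58 to 1.79 after knockdown. SLC25A23 over SLC25A24 was likewise 3.15 to 4.48 and 2.16 to 2.70, SLC25A33 over SLC25A36 2.33 to 3.11 and 1.91 to 2.16. SLC25A42 over SLC25A16 ran the other way, at 5.27 to 6.05 and 6.65 to 8.06, as did SLC25A5 over SLC25A4, at 38.1 to 43.9 and 50.6 to 55.6. SLC25A5 over SLC25A6 was the pair with overlapping ranges, at 2.25 to 2.67 and 2.37 to 2.57.

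**Figure D4:**
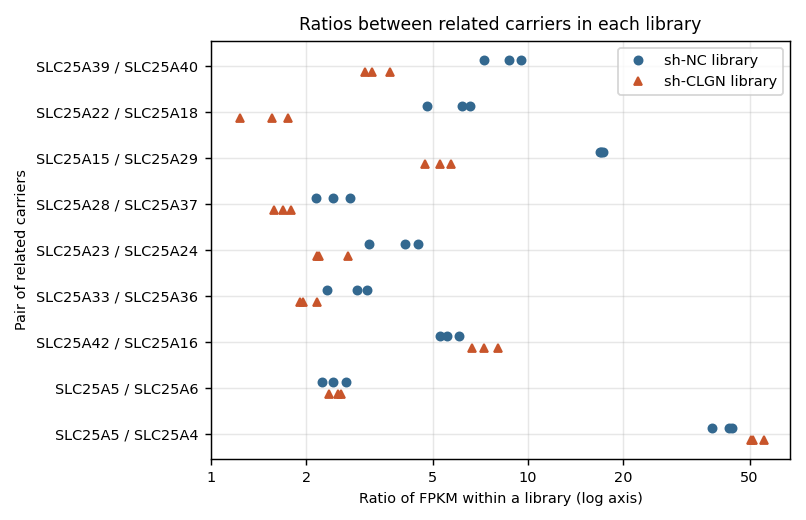
Ratios of the FPKM of related SLC25A genes within each library are drawn on a log axis, with circles for the 3 sh-NC libraries and triangles for the 3 sh-CLGN libraries. Ratios of SLC25A39 to SLC25A40, SLC25A22 to SLC25A18 and SLC25A15 to SLC25A29 lie furthest apart between the groups, and those of SLC25A5 to SLC25A6 overlap.

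The direction of change went with the level of the gene, in the carriers and in all tested genes. Of the 9 carriers with a mean over 20 FPKM, 8 were lower (88.9%) and 0 higher, the exception being SLC25A38, beside 61.5% lower among the 2364 tested genes of that level. Under quantile normalization 5 of these 9 were lower and 1, SLC25A38, higher, and with the GC correction or read totals 7 were lower and 1 higher. Of all tested genes, at any level, 32.5% were lower and 30.2% higher under quantile normalization. With the GC correction 34.9% were lower and 32.2% higher, and with read totals 26.2% and 37.9%. The shares among genes over 20 FPKM were not counted under these settings, so these counts are a description. Of the 14 tested carriers under 5 FPKM, 5 were higher and 3 lower, near the shares of all tested genes under 5 FPKM (35.0% higher and 22.8% lower). Among these 5, SLC25A27 and SLC25A18 were tested only because of the sh-CLGN libraries, where they were high. They also enter the correlation over the carriers. Spearman's correlation between mean level and log2 fold change was -0.47 over the 37 carriers and -0.33 over all tested genes, a description over genes that share the same libraries. The 5 most abundant carriers together held 63.4% of the carrier FPKM in sh-NC and 62.7% in sh-CLGN.

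Transcript composition moved with the changes too. The median GC content of the longest transcript was 58.1% in the 19 lower carriers, 42.2% in the 9 higher carriers and 50.1% in the 9 that did not pass. Spearman's correlation between GC content and log2 fold change was -0.39 over the 37 carriers and -0.32 over all tested genes, and between gene length and log2 fold change 0.44 over the carriers and -0.02 over all. After the GC trend was removed, the called changes of SLC25A6, SLC25A10, SLC25A35 and SLC25A45 no longer passed, and SLC25A24, SLC25A25, SLC25A37 and SLC25A38 passed. The part of GC content in the remaining changes was not tested.

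**Figure D5:**
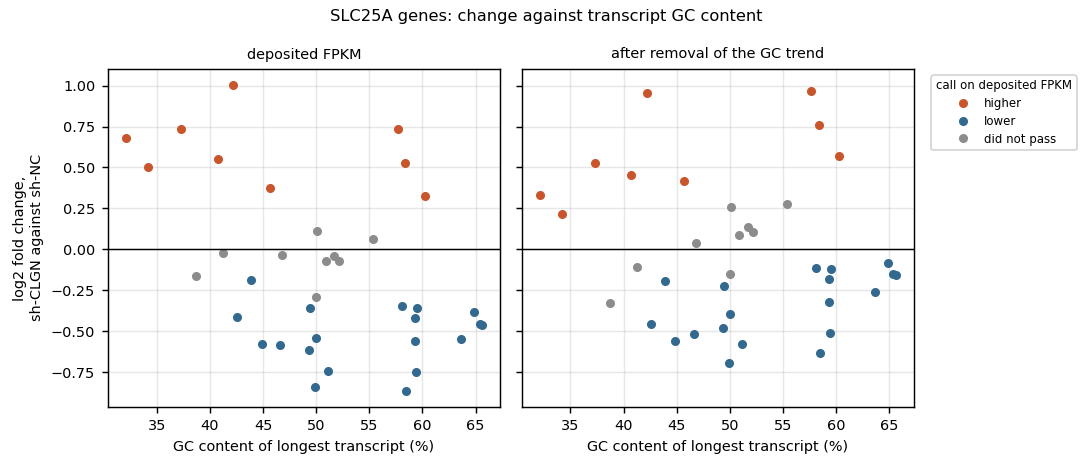
GC content of the longest transcript in percent is set against the log2 fold change of the 37 tested SLC25A genes, on the deposited FPKM at left and after removal of the GC trend at right, with colors for the call on the deposited FPKM. At left the genes under 40% GC are higher or did not pass, and at right 12 genes are higher and 16 lower at the adjusted p.

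Genes that serve the carriers were set beside them. Over all tested genes 39% were lower and 26.7% higher. Of 16 tested genes of carrier import and insertion, 9 were lower (56.2%) and 1 higher, and TIMM22, the core of the carrier insertase, fell past both thresholds from 16.1 ± 0.797 to 6.92 ± 0.228 FPKM (log2 change -1.11, adjusted p = 3.90e-06 in limma). Of 21 other mitochondrial membrane transporters, 9 were lower (42.9%) and 2 higher, and SLC8B1, the sodium and calcium exchanger, fell from 3.72 ± 0.288 to 1.32 ± 0.106 FPKM (log2 change -1.02, adjusted p = 2.25e-05). Of 25 tested enzymes that use or supply carrier substrates, 19 were lower (76%) and 2 higher, and 3 were past both thresholds. GOT1, the cytosolic aspartate aminotransferase on the far side of SLC25A13, fell from 50.2 ± 1.34 to 20.1 ± 0.809 FPKM (log2 change -1.28, adjusted p = 1.59e-06). CPT1A and CRAT, which make acylcarnitines and acetylcarnitine, fell by 1.17 and 1.04 on the log2 scale (adjusted p = 6.03e-06 and 1.46e-05). The pantothenate kinases PANK1 and PANK3, which start coenzyme A synthesis, were the enzymes that rose, at 0.25 and 0.48 (adjusted p = 0.0344 and 0.00103). Of the genes of these lists called lower, 4 changed sign under an alternative, none past the adjusted p there. TIMM9 (0.0012), MDH1 (0.079), COASY (0.084) and ACLY (0.13) did so under quantile normalization, COASY (0.040) and ACLY (0.0066) also with the GC correction, and ACLY (0.021) with read totals.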

How the data were processed

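Libraries were prepared from total RNA with a NEBNext Ultra kit, per the labels, in 3 sh-NC and 3 sh-CLGN samples. The authors deposited FPKM values per gene, and the submitters' processing notes name HISAT2 2.0.5, featureCounts and GRCh38. Strandedness and the handling of shared reads are not given in the sources used here, and 21 carriers share exon bases with another gene. Gene positions equalled GENCODE 29 for all 58735 genes. FPKM times gene length fell on whole reads for 100% of values within 0.01 of a read, and no molecular identifiers were used, so depth covers counting error only.

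limma 3.58.1 (R 4.3.3) was fitted to log2(FPKM + 1), which understates changes of low genes, with the trend option of eBayes, on the 13074 genes that reached 1 FPKM in 3 or more libraries. Its two-sided p-values were adjusted by the Benjamini-Hochberg method over all of them. A gene was higher or lower at an adjusted p up to 0.05, and a log2 change of 1 in either direction was a further threshold. The procedure was tested on simulated data. The carriers, the lists and the alternatives were chosen with earlier results of these data known. Values per library are given for carriers past the adjusted p and an absolute log2 fold change of 0.58 and for the 5 with the highest mean FPKM, and list genes past both thresholds are named. The values of 1 tested carrier are not reported here and are not drawn in the figures with gene names. Names and values for other carriers, and the paralog pairs, were chosen after the values were seen.

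Other settings tried were TPM, median-ratio, quantile and read-total scaling, removal of the GC trend (lowess span 0.3), voom on recovered reads, filters of 0.1 FPKM on the mean or none, a pseudocount of 0.1, a replicate block, and each library left out in turn. Promoter windows were RefSeq's, found for 40 of 48 carriers (50 windows), with 10 motifs searched on both strands (TGACG, also searched, is part of TGACGTCA). A carrier counted for a motif if any of its windows held it. Python 3.11.15 was used for sequences and figures.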

Additional observations from a re-analysis of the deposited data

Results flagged for a closer look

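Outside the protein-coding rows, SLC25A15P4 (ENSG00000273872, chr21:10612455-10613379), an unprocessed pseudogene named for SLC25A15, was listed above its level in the control libraries. It held 2, 4 and 4 reads in sh-NC and 11, 9 and 16 reads in sh-CLGN, or 0.78 ± 0.247 and 2.52 ± 0.802 FPKM over 289 bases (SD, n = 3). It came to notice because the comparisons of the report do not use the 45 SLC25A rows of other kinds, 29 of which were at 0 in every library. SLC25A15 itself fell. Counted over all kinds of gene together, more genes held a read in sh-CLGN (26887 ± 104) than in sh-NC (23672 ± 110), and the part of that in this row was not tested. Which of the copies these few reads came from was not tested.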

How the results depend on the processing

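Of the 28 called carriers, 22 kept their direction and call under all 10 alternatives that keep every library, and 26 in all 6 fits without a library. The fits without a library gave 8 to 9 higher and 18 to 20 lower carriers, where 20.45% to 27.98% of all tested genes were higher and 36.07% to 39.47% lower. The 6 that lost a call with every library kept were SLC25A3, SLC25A5, SLC25A6, SLC25A10, SLC25A35 and SLC25A45, and the cause was not tested. SLC25A45 also lost it without sh-CLGN replicate 2, and SLC25A27 was not tested without any one of the sh-CLGN libraries, since it then fell below the filter, so 21 kept theirs in every fit. The number of carriers higher past both thresholds was 1, and became 0 with the GC correction and with quantile normalization, 2 with TPM, a pseudocount of 0.1 and voom, and 0 to 1 without a library. The median log2 fold change of the tested carriers was -0.29, and became -0.12 with the GC correction, -0.12 with quantile normalization, -0.16 with read totals, -0.23 with TPM, -0.36 with a pseudocount of 0.1, -0.36 with voom, -0.16 with a mean of at least 0.1 FPKM, -0.055 with no filter, -0.18 without the carriers that share over 20% of their exon bases (chosen after seeing the data), and -0.35 to -0.22 without a library. A change of sign came with read totals in SLC25A14 (0.10), SLC25A16 (0.12), SLC25A24 (0.0033), SLC25A3 (0.0078), SLC25A38 (0.15) and SLC25A51 (0.074), with TPM in SLC25A14 (0.069), SLC25A16 (0.084), SLC25A38 (0.088) and SLC25A51 (0.027), with the GC correction in SLC25A14 (0.036), SLC25A38 (0.13) and SLC25A51 (0.086), and with quantile normalization in SLC25A3 (0.10) and SLC25A38 (0.22). The median of all tested genes shifted as well. It moved by 0.16 with read totals, 0.11 with TPM, 0.065 with the GC correction and 0.060 with quantile normalization. The shift was 0.12 with a mean of at least 0.1 FPKM and 0.11 with no filter, both over more genes. It was -0.014 with a pseudocount of 0.1, -0.016 with voom and -0.031 to 0.0069 without a library.

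Same-numbered libraries did not deviate together (correlations of -0.02, -0.05 and -0.15 across genes). This cannot show whether they were prepared side by side, which the labels do not say. The fit with the replicate number as a block gave 9 higher and 19 lower carriers, 1 past both thresholds and a median of -0.29. In that fit 25.1% of all tested genes were higher and 36.4% lower. Depth limits the carriers below the filter, which rest on 0 to 46 reads per library.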
